A study of Mus musculus with 12 samples.

Results

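The genes of protein folding and of the unfolded protein response in the endoplasmic reticulum (ER) were followed by name, as a list of 35 genes with 4 roles. The list held 18 chaperones and folding enzymes, 3 genes of the translocon, 7 degradation factors and 7 stress signalling genes. A listed gene was followed when the array's gene table named at least 1 probe by its symbol, which held for 30 genes with 43 probes. Manf was added through its gene ID, since the table carried an older symbol, so that 31 genes with 44 probes were found among the 18113 genes of the array. Sdf2l1, Dnajb11, Atf6 and Eif2ak3 were not analysed here. The signal of a probe counted as detected at a detection p-value under 0.05, and 25 of the 35 genes were detected on at least 3 of the 12 arrays and entered the tests. Canx was detected on 1 array, Derl3 on 2, and Ero1l, Derl1, Ern1 and Ssr1 on none. Hyou1, on 4 arrays, and Manf, on 3, passed this filter narrowly, and no group was above the background floor, given below, on all of its arrays for Manf. A gene that passes only through the group in which it is high has to differ, so the counts below describe the 25 tested genes only.

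Secreted and membrane proteins enter the ER through the Sec61 pore, fold there with the help of chaperones and of enzymes that form disulfide bonds, and are sent back to the cytosol for destruction when folding fails. When unfolded protein builds up, the sensors Ire1, Perk and Atf6 start the unfolded protein response, in which the transcription factors Xbp1, Atf4 and Atf6 switch on chaperones, degradation factors and, under lasting stress, Ddit3 (CHOP). Fat cells secrete adipokines and lipases through this route, and the response has been studied in obese fat tissue, while glands of the male reproductive tract are also strongly secretory.

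RNA came from the epididymal fat of male C57BL/6J mice aged 20 weeks, placed after weaning at 4 weeks on a diet with 45% fat (high fat) or 10% fat (low fat). The 4 groups were Siah2 knockout mice on the high fat diet, Siah2 knockout mice on the low fat diet, wild type mice on the high fat diet and wild type mice on the low fat diet. The knockout, of a ubiquitin ligase, was global, so it was not limited to fat cells. Each group gave 3 RNA pools, each run on 1 Illumina bead array. High fat knockout pools combined 2 or 3 of 8 animals, and pools of each other group 3 or 4 of 10 animals. A pool averages its animals, and the p-values below measure the spread between pools.

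The values are normalized intensities, the brightness of a probe after the authors' normalization, and a level near or below 27.9 could not be told from background. The authors' column medians lay between 33.3 and 33.6, and 13389 to 15037 probes were detected per array. Siah2 averaged 66.0 ± 19.3 in knockout fat and 99.0 ± 15.6 in wild type fat (SD, n = 6 each). On knockout low fat array 1 it stood at 102, inside the wild type range of 78.6 to 121, and whether the probe lies in the deleted stretch was not known. Fat cell markers were above the floor on all 12 arrays, 8 of 8, with Adipoq between 24973 and 37111. Markers of other tissues differed widely between arrays. The mean log2 level of 14 epididymis markers was 5.86, 9.67 and 5.78 on the knockout high fat arrays, 10.01, 8.37 and 10.73 on the knockout low fat arrays, 6.61, 6.54 and 6.27 on the wild type high fat arrays and 13.30, 13.17 and 11.75 on the wild type low fat arrays. Knockout high fat array 2 therefore stood far from the other arrays of its group. Skeletal muscle markers averaged 9.22 on knockout low fat array 1, against 6.79 and 6.87 on arrays 2 and 3, and they stood at 6.72, 6.79 and 6.57 on the wild type high fat arrays and 6.80, 7.87 and 8.26 on the wild type low fat arrays. Results that rest on these arrays are given with and without them.

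The promoters of the listed genes are known for short elements through which the unfolded protein response acts, and they are shown here for the members on which the results turn. RefSeq promoter sequences (GRCm38.p6) matched 30 of the 35 genes. The 250 bases before each start site were searched on both strands for the ER stress response element (ERSE, which is CCAAT and CCACG with 9 bases of any kind between them, known to be bound by Atf6 and Xbp1 together with NF-Y), for ERSE-II (ATTGG and CCACG with 1 base of any kind between them), for the unfolded protein response element (UPRE, TGACGTGG) and for the CARE element known for Atf4 (TGATGCAAT). ERSE stood in 10 of the 30 promoters, against 0.113% of the 32851 mouse promoters searched. ERSE-II stood in 1 of the 30, Herpud1, against 0.03% of all promoters, and UPRE and CARE in 0 of the 30, against 0.563% and 0.167% of all promoters. Each element was searched only in the exact spelling given, so variant forms were not counted. The last 160 bases before the start site follow, 5′ to 3′ on the gene's strand. Hspa5, Creld2 and Herpud1 hold a match, whose fixed letters are in capitals, and Dnajc10 and Sel1l, which had the largest decrease and the increase with the smallest adjusted p below, hold none in this window.
Hspa5 (chr2:34771930-34772089, plus strand): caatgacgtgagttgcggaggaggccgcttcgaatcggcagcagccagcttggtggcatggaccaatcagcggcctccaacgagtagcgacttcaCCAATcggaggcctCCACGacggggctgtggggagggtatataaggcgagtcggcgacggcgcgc
Creld2 (chr15:88819486-88819645, plus strand): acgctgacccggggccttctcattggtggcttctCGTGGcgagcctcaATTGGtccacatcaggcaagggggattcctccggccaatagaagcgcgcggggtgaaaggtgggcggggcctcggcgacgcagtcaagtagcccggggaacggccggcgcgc
Herpud1 (chr8:94386269-94386428, plus strand): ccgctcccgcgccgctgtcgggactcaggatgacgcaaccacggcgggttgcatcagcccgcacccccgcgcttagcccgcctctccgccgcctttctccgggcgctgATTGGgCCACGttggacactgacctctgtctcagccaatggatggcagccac
Dnajc10 (chr2:80315306-80315465, plus strand): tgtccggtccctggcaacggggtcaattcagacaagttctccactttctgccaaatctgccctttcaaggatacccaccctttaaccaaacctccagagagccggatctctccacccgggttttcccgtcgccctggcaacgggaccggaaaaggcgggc
Sel1l (chr12:91849158-91849317, minus strand): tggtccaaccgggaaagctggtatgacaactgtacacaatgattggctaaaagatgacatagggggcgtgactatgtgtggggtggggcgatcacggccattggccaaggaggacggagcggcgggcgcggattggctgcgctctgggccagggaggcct
In Hspa5 the match lay 65 to 47 bases before the start, in Creld2 126 to 108 bases before it and read on the other strand, and in Herpud1 52 to 42 bases before it. Further ERSE matches among the tested genes were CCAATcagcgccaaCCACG in Dnajc3, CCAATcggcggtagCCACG in Syvn1, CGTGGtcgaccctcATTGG in Calr, CGTGGtcccgcctcATTGG in Ero1lb and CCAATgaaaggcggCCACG in Pdia6. Hsp90b1 carried 2, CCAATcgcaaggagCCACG and, nearer to the start, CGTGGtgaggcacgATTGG. A match describes the letters only, and whether any factor binds there was not measured.

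In wild type fat 9 of 14 tested chaperones and folding enzymes were lower on the high fat diet, while of the 5 tested degradation factors 2 were lower and 3 higher. Of the 25 tested genes, 13 fell and 3 rose with an adjusted p under 0.05, and 9 did not pass. Of all 11774 genes tested, 39.5% passed, 16.7% lower and 22.7% higher. The median log2 change of the 25 was -0.40, beside 0.06 over all genes. In 15 of the 25 every high fat array lay below every low fat array, as it did in 22.3% of all genes, and in 3 every high fat array lay above, beside 29.2% of all genes. The epididymis markers, given above, separated the same arrays, at 6.27 to 6.61 on high fat and 11.75 to 13.30 on low fat. With their mean as a covariate 0 of the 25 passed, and of all 11774 genes 10 did, so this count is not particular to the listed genes. In tissue RNA, fewer cells of a type and less RNA per cell cannot be told apart.

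Among the chaperones and folding enzymes, 9 of 14 tested genes fell and 5 did not pass. Without Hyou1 and Manf, whose low detection fixes their sign in part, all 12 estimates were below 0, with a median of -0.84. Hspa5 (BiP, the main Hsp70 chaperone of the ER and the protein that holds the stress sensors inactive) stood at 653, 280.5 and 386 in high fat wild type fat, against 1061, 911 and 1166 in low fat wild type fat. Its log2 change was -1.23 (SE 0.31, adjusted p = 0.0109), 2.34-fold lower, with no overlap of arrays. Hsp90b1 (Grp94, the Hsp90 of the ER) stood at 8979.8, 9063 and 8383, against 14584, 12318 and 13640.3 on low fat, a log2 change of -0.61 (SE 0.14, adjusted p = 0.00713). Calr (calreticulin, a chaperone that binds sugar chains) stood at 365, 513 and 182, against 932, 863 and 514 (log2 change -1.07, SE 0.30, adjusted p = 0.016). Both genes were lower on every high fat array, but for Calr the highest high fat array and the lowest low fat array nearly met.

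The 4 largest decreases were those of Dnajc10, Creld2, Pdia4 and Ero1lb, which all act on disulfide bonds, while the disulfide isomerases Pdia3, P4hb and Pdia6 did not pass. Dnajc10 (ERdj5, a reductase that opens disulfide bonds of proteins due for degradation) stood at 1362, 1426 and 1361 in high fat wild type fat, against 10570.4, 11266 and 11693 in low fat wild type fat. This was a log2 change of -2.97 (SE 0.66, adjusted p = 0.00528), 7.83-fold lower, and within each group the arrays lay close together. Its second, dimmer probe gave -1.53 (adjusted p = 0.00678). Creld2 (a disulfide enzyme known to be induced by ER stress) stood at 521, 729.8 and 505, against 2929.7, 1713 and 1610.2 (log2 change -1.71, SE 0.37, adjusted p = 0.00461). Pdia4 (ERp72, a protein disulfide isomerase) stood at 1190.3, 1435 and 1161, against 4789, 3032 and 2690.1 (log2 change -1.40, SE 0.24, adjusted p = 0.00151). For Creld2 and Pdia4 alike, low fat array 1 was the brightest and the remaining low fat arrays still lay above every high fat array. Ero1lb (an oxidase that recharges the disulfide isomerases) stood at 157, 181 and 121, against 713, 743 and 187 (log2 change -1.38, SE 0.37, adjusted p = 0.014). Here the difference was carried by low fat arrays 1 and 2, since array 3 stood near the high fat level. Without array 1 or array 2 the adjusted p was 0.0512 or 0.0575.

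Other co-chaperones of the ER DnaJ family, to which Dnajc10 also belongs, had smaller estimates. Dnajb9 (ERdj4) stood at 2722, 2388 and 2191 in high fat wild type fat, against 4151, 3564 and 3117 in low fat wild type fat (log2 change -0.56, SE 0.16, adjusted p = 0.0196). Dnajc3 (p58IPK, known also as an inhibitor of the kinase Perk) stood at 859, 935 and 765, against 1123, 1163 and 939 (log2 change -0.32, SE 0.11, adjusted p = 0.0391). The nearest arrays of Dnajc3 were almost equal, 935 on high fat beside 939 on low fat. Among those that did not pass, Pdia3 (ERp57, the disulfide isomerase that works with calreticulin) stood at 7732, 7423 and 4630.2, against 10509.9, 8979.8 and 8528 (log2 change -0.53, SE 0.23, adjusted p = 0.086). Pdia6 stood at 506, 461 and 484, against 700.5, 486 and 499, so its arrays overlapped, and P4hb had a log2 change of -0.15 (adjusted p = 0.255). Hyou1 and Manf stayed between 6.73 and 65.2 and between -0.18 and 60.4 over the 12 arrays. Both were below the floor on every high fat wild type array. Hyou1 was at least 1.18-fold lower there (adjusted p = 0.0806), and for Manf (adjusted p = 0.119) no bound above 1 could be given.

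Of the 2 tested translocon genes 1 fell. Sec61a1 (the pore-forming subunit) stood at 699, 648 and 766 in high fat wild type fat, against 1154, 951 and 798 in low fat wild type fat (log2 change -0.42, SE 0.13, adjusted p = 0.0284). Its lowest low fat array lay just above its highest high fat array. Sec61b, a small subunit of the same pore, stood at 224, 260.3 and 309, against 322, 254 and 234, and its arrays overlapped (log2 change -0.03, adjusted p = 0.896).

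The 5 tested degradation factors all passed, in both directions. Herpud1 (a membrane scaffold of the degradation complex) stood at 4453, 5111 and 4758 in high fat wild type fat, against 7874, 8017 and 7482 in low fat wild type fat (log2 change -0.70, SE 0.12, adjusted p = 0.00117), and its other probe gave -0.81 (adjusted p = 0.000957). Syvn1 (Hrd1, the ubiquitin ligase of the complex) stood at 3962, 4009 and 4372, against 5259, 5728 and 5339 (log2 change -0.40, SE 0.10, adjusted p = 0.0083). Both stood apart on every array. Sel1l, the partner of that ligase, went the other way. It stood at 2652, 3203 and 2682, against 1862, 1805 and 1546 (log2 change 0.70, SE 0.15, adjusted p = 0.00442), with no overlap, although its 2 dimmer probes gave 0.19 (adjusted p = 0.279) and 0.13 (adjusted p = 0.556). Edem1 (a lectin-like factor that hands over misfolded glycoproteins) stood at 176, 141 and 54.9, against 58.3, 29.7 and 10.4 (log2 change 1.04, SE 0.30, adjusted p = 0.0194). Derl2 (a derlin of the export channel) stood at 615, 539 and 767, against 401, 395 and 556 (log2 change 0.46, SE 0.16, adjusted p = 0.0398). For these last 2 genes the arrays overlapped, Edem1 was near the floor on low fat, and a second, dim probe of Derl2 gave -0.28 (adjusted p = 0.162).

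Among the stress signalling genes 1 of 4 passed. Xbp1 (the transcription factor made after Ire1 splices its RNA) stood at 7505, 7205 and 7469.7 in high fat wild type fat, against 9133, 8730.4 and 8580.1 in low fat wild type fat (log2 change -0.25, SE 0.09, adjusted p = 0.0411). Its arrays did not overlap, but the difference was small, and the intensity of a single probe gives no measure of splicing. Atf4 (the factor translated when Perk phosphorylates eIF2α) stood at 3608, 3631 and 3352, against 3602, 4059 and 4463 (log2 change -0.19, adjusted p = 0.162). Trib3 (a pseudokinase known as a target of Atf4 and Ddit3) stood at 316, 351 and 431, against 197, 135 and 271 (log2 change 0.76, SE 0.36, adjusted p = 0.114). Trib3 was thus brighter on every high fat array without passing the test. Ddit3 lay between 169 and 363 over all 12 arrays, with a log2 change of 0.33 (adjusted p = 0.105), while its second probe gave 0.47 (adjusted p = 0.0335).

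**Figure D1:**
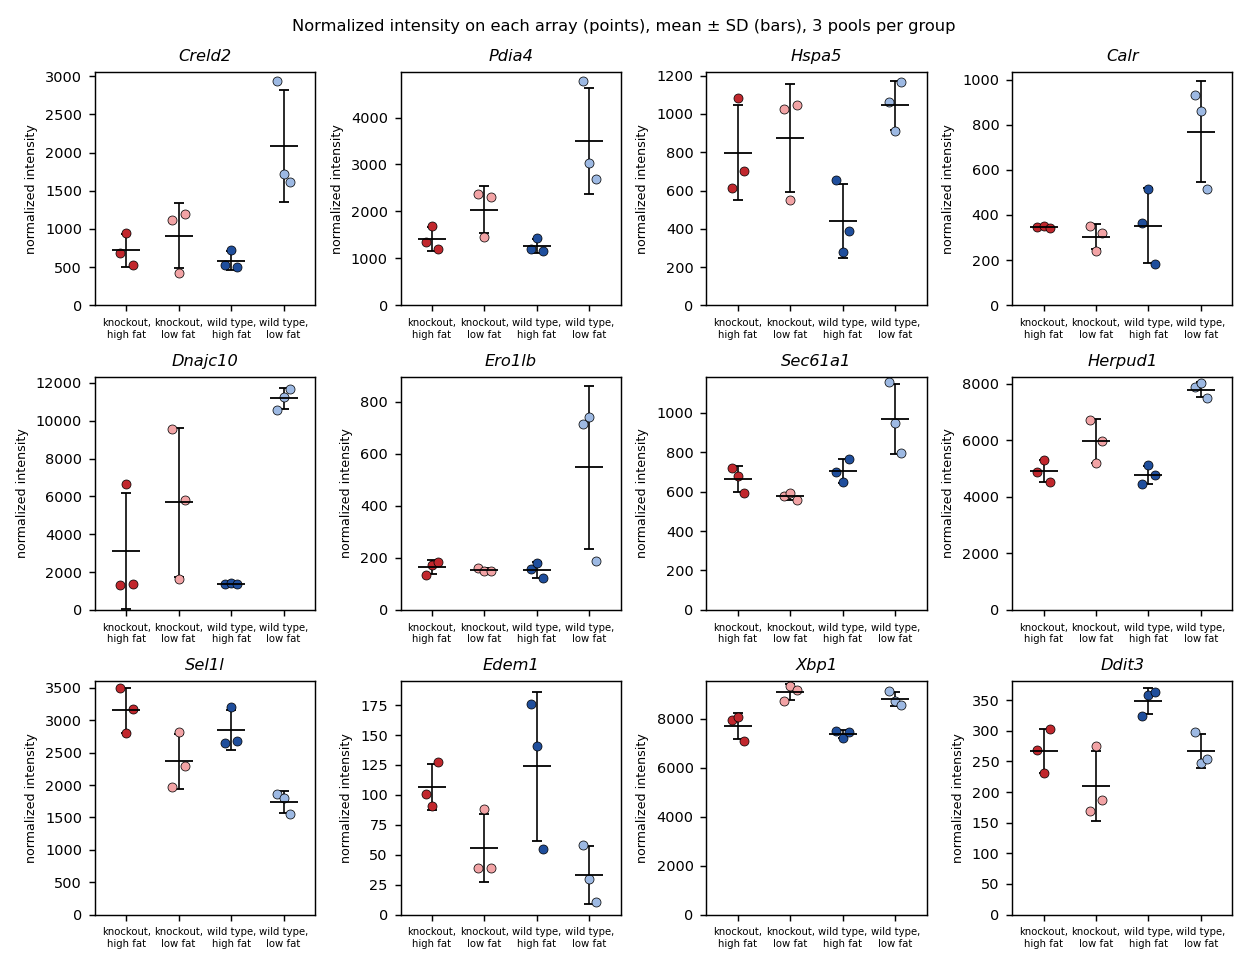
Normalized intensity (vertical axes, from 0) of 12 listed genes on each of the 12 arrays, in knockout high fat, knockout low fat, wild type high fat and wild type low fat fat tissue; points are pools, bars the mean and SD of 3 pools. Dnajc10, Creld2, Pdia4 and Herpud1 stand highest in the low fat wild type group, and Sel1l stands lowest there.

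Of the lower genes with a promoter sequence, 7 of 12 held an ERSE in the 250 bases searched and 1 of 12, Herpud1, an ERSE-II. Of the 3 higher genes none did, and of the 7 that did not pass 1 did, Pdia6. The promoters of Dnajc10, Pdia4, Dnajb9 and Xbp1, all lower, held no match, and Canx and Derl3, which held one, were not tested. Derl3 stood at 56.5, 19.8 and 8.81 in low fat wild type fat and at 11.8 or below on all other arrays. Only the value of 56.5 was above the floor, so no difference between groups can be read from Derl3.

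Of the 16 genes called in wild type fat, 8 were called in each of the 12 fits that left out 1 array. These were Creld2, Dnajc10, Herpud1, Hsp90b1, Hspa5, Pdia4, Sel1l and Syvn1. Calr, Derl2, Dnajb9, Dnajc3, Edem1, Ero1lb, Sec61a1 and Xbp1 were lost in 2 to 9 of the 12. The count fell to 9 without low fat wild type array 1 and to 8 without array 2, and it was 14 without the pair of knockout arrays that stood apart. Over all genes the 4646 calls of this comparison became 3548 to 4813 when 1 array was left out.

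In knockout fat none of the 25 genes passed the same diet comparison, in a design in which 4.34% of all genes did. By limma's moderated test 3 of the 25 had an unadjusted p under 0.05, and the median log2 change was -0.02, beside -0.01 over all genes. The share of all genes under an unadjusted p of 0.05 was not counted, here or below, so such counts only describe the listed genes. Sel1l stood at 3495, 2799 and 3177 in high fat knockout fat, against 1977, 2824 and 2298 in low fat knockout fat (log2 change 0.42, SE 0.15, adjusted p = 0.166). It overlapped by 1 array, low fat array 2, and without that array it passed (log2 change 0.55, adjusted p = 0.0493). Xbp1 stood at 7950.3, 8069 and 7104, against 8709, 9349.9 and 9196 (log2 change -0.24, SE 0.09, adjusted p = 0.184). This estimate is close to the one in wild type fat, and the arrays did not overlap. Herpud1 stood at 4878, 5315 and 4533, against 6727, 5189 and 5975 (log2 change -0.27, SE 0.12, adjusted p = 0.254), with an overlap at low fat array 2.

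Several chaperones varied widely between pools of one knockout group. Dnajc10 stood at 1310.3, 6673 and 1343 in high fat knockout fat, against 9563, 1644 and 5820.5 in low fat knockout fat (log2 change -0.97, SE 0.66, adjusted p = 0.512). High fat array 2 was thus as bright as the low fat arrays, and low fat array 2 almost as dim as the remaining high fat arrays. Creld2 stood at 683, 946 and 526, against 1120.1, 425 and 1189 (log2 change -0.24, adjusted p = 0.812), with the same low fat array lowest. Hspa5 stood at 613, 1083 and 700.0, against 1024, 549 and 1047 (log2 change -0.11, adjusted p = 0.909), again with high fat array 2 highest and low fat array 2 lowest. Pdia4 stood at 1352, 1688 and 1200.3, against 2370.2, 1452 and 2300.1 (log2 change -0.50, adjusted p = 0.334). Within their groups high fat array 2 was also the highest, at 9.67, and low fat array 2 the lowest, at 8.37, in the mean of the epididymis markers. Without high fat array 2 and low fat array 1 together, 0 of the 25 passed and 3 had an unadjusted p under 0.05.

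**Figure D2:**
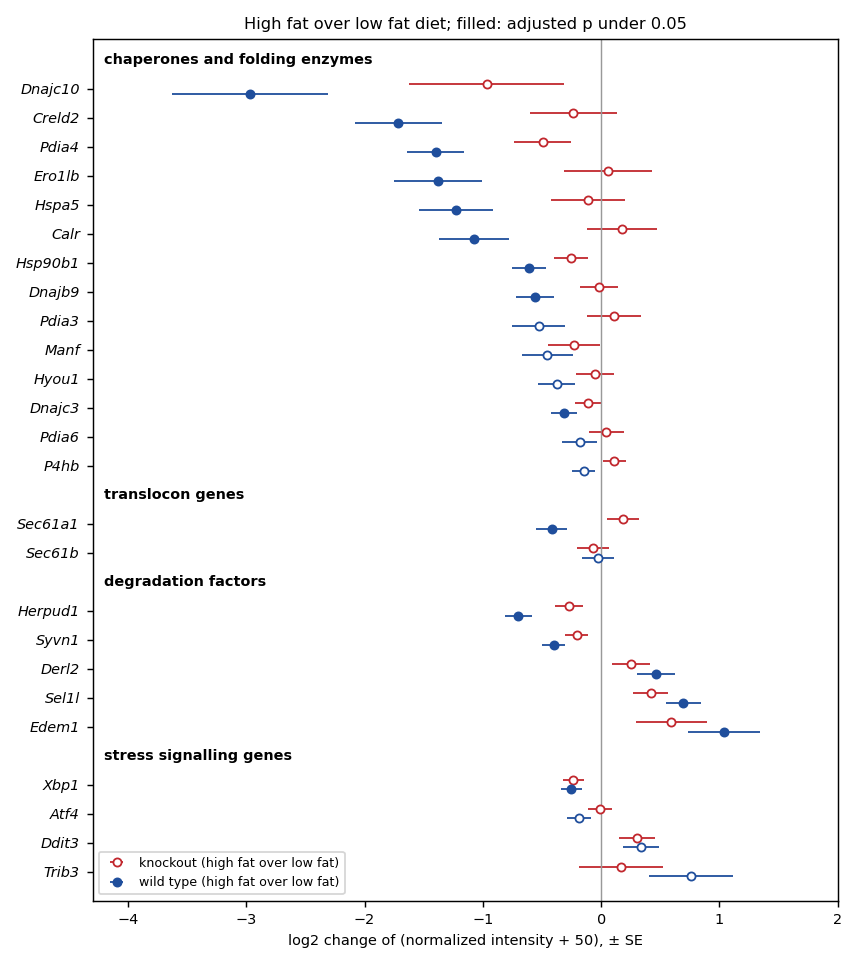
Log2 change of normalized intensity plus 50 (horizontal axis) with its SE for the 25 tested genes, high fat over low fat, in knockout (red) and wild type fat (blue), grouped by role; filled points passed an adjusted p of 0.05. The blue chaperone points all lie left of 0, down to -2.97 for Dnajc10, and no red point is filled.

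The difference between the diet effects was tested directly, as the change in knockout fat minus the change in wild type fat. None of the 25 genes passed, where 0.102% of all genes did. By limma 8 of the 25 had an unadjusted p under 0.05, a threshold for which the share of all genes was not counted. The median difference was 0.26 for the 25 and -0.08 over all genes. Of the chaperones other than Hyou1 and Manf, 12 of 12 had an estimate above 0. Each of these estimates contains the diet change in wild type fat, which was below 0 for the same genes. Their common sign is therefore not a separate result, and the share of all genes above 0 was not counted. Sec61a1 had a difference of 0.61 (SE 0.19, adjusted p = 0.152), Calr 1.25 (SE 0.42, adjusted p = 0.162), Creld2 1.48 (SE 0.52, adjusted p = 0.172) and Dnajc10 2.00 (SE 0.93, adjusted p = 0.255). The diet changes seen in wild type fat were therefore not shown to differ from those in knockout fat. Ero1lb alone passed when low fat wild type array 3 was left out (difference 2.01, adjusted p = 0.000984), and it had a difference of 1.44 (adjusted p = 0.18) with all arrays.

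On the low fat diet 5 of the 25 genes were lower in knockout than in wild type fat and none was higher, beside 3.15% lower and 4.71% higher of all genes. They were 4 of 14 chaperones and folding enzymes and 1 of 2 translocon genes. A further 5 had an unadjusted p under 0.05, 10 in all, and the median log2 change of the 25 was -0.29, beside 0.04 over all genes. In 11 of the 25 every knockout array lay below every wild type array, as it did in 13.9% of all genes.

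Sec61a1 stood at 577, 592 and 558 in low fat knockout fat, against 1154, 951 and 798 in low fat wild type fat (log2 change -0.69, SE 0.13, adjusted p = 0.0235). P4hb (the abundant protein disulfide isomerase, also a subunit of collagen prolyl hydroxylase) stood at 7458, 7069.7 and 7862, against 10752, 10535 and 8955 (log2 change -0.43, SE 0.10, adjusted p = 0.0339). Dnajc3 stood at 756, 766 and 790.2, against 1123, 1163 and 939 (log2 change -0.45, SE 0.11, adjusted p = 0.0383). For each of them the knockout arrays lay within a narrow band below all wild type arrays. Calr stood at 350.0, 241 and 319, against 932, 863 and 514 (log2 change -1.19, SE 0.30, adjusted p = 0.0417). Ero1lb stood at 163, 148 and 149, against 713, 743 and 187 (log2 change -1.37, SE 0.37, adjusted p = 0.0493), so that wild type array 3 again stood close to the other group.

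Several further members were lower on every knockout array without passing. Creld2 stood at 1120.1, 425 and 1189 in low fat knockout fat, against 2929.7, 1713 and 1610.2 in low fat wild type fat (log2 change -1.22, SE 0.37, adjusted p = 0.0661). Pdia4 had a log2 change of -0.75 (adjusted p = 0.077), Herpud1 of -0.39 (adjusted p = 0.0608) and Dnajc10 of -1.30 (SE 0.66, adjusted p = 0.224). The other probe of Herpud1 gave -0.49 and passed in a limma fit of all detected probes (adjusted p = 0.047). The knockout and wild type arrays of these genes did not overlap. Hspa5 overlapped (log2 change -0.29, adjusted p = 0.571), Syvn1 was close to 0 (log2 change -0.05, adjusted p = 0.768), and so was Xbp1 (log2 change 0.04, adjusted p = 0.784). The count depended on single arrays, as did the 925 calls over all genes, which became 25 to 1559 when 1 array was left out. The count of listed genes was 0 without knockout array 2 or 3 or wild type array 1 or 2 of the low fat groups. It was 9 without knockout low fat array 1, the array with Siah2 in the wild type range and high muscle markers. Those 9 were 7 lower and 2 higher, the higher ones Sel1l (log2 change 0.54, adjusted p = 0.0435) and Trib3 (0.90, adjusted p = 0.041), and the same split was found without both arrays that stood apart. Leaving out arrays of the high fat groups, which enter only through the shared spread, gave 2 without knockout high fat array 1 or 3 and 3 without knockout high fat array 2 or wild type high fat array 1. None of the 5 genes passed in all 12 such fits. With only the arrays of the low fat groups in the fit the count was 0, and with no detection filter it was 2.

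On the high fat diet none of the 25 genes differed between knockout and wild type fat with an adjusted p under 0.05, where 0.0849% of all genes did, and 2 had an unadjusted p under 0.05 by limma. Hspa5 stood at 613, 1083 and 700.0 in high fat knockout fat, against 653, 280.5 and 386 in high fat wild type fat (log2 change 0.83, SE 0.31, adjusted p = 0.37), with 1 knockout array inside the wild type range. Dnajc3 stood at 671, 732 and 725, against 859, 935 and 765 (log2 change -0.25, SE 0.11, adjusted p = 0.426). P4hb stood at 8201, 8031 and 7898, against 9196, 9349.9 and 8685 (log2 change -0.17, SE 0.10, adjusted p = 0.511). Dnajc3 and P4hb were lower on every knockout array, as were Ddit3 and Hyou1, the latter below the floor throughout. Dnajb9 and Pdia6 were higher on every knockout array. The share of all genes without overlap is not given for this comparison. Over both diets together Dnajc3 passed at a log2 change of -0.35 (SE 0.08, adjusted p = 0.0443) and P4hb at -0.30 (SE 0.07, adjusted p = 0.0478), beside 1.07% of all genes lower. Sec61a1 missed the threshold (log2 change -0.39, SE 0.09, adjusted p = 0.0551). The count over both diets was 0 when any array other than low fat wild type array 3 was left out, and 4 without that array. It was 0 without the pair that stood apart or with an offset of 32 in place of 50 before the log2. Over all genes the 326 calls of this comparison became 12 to 409 when 1 array was left out.

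**Figure D3:**
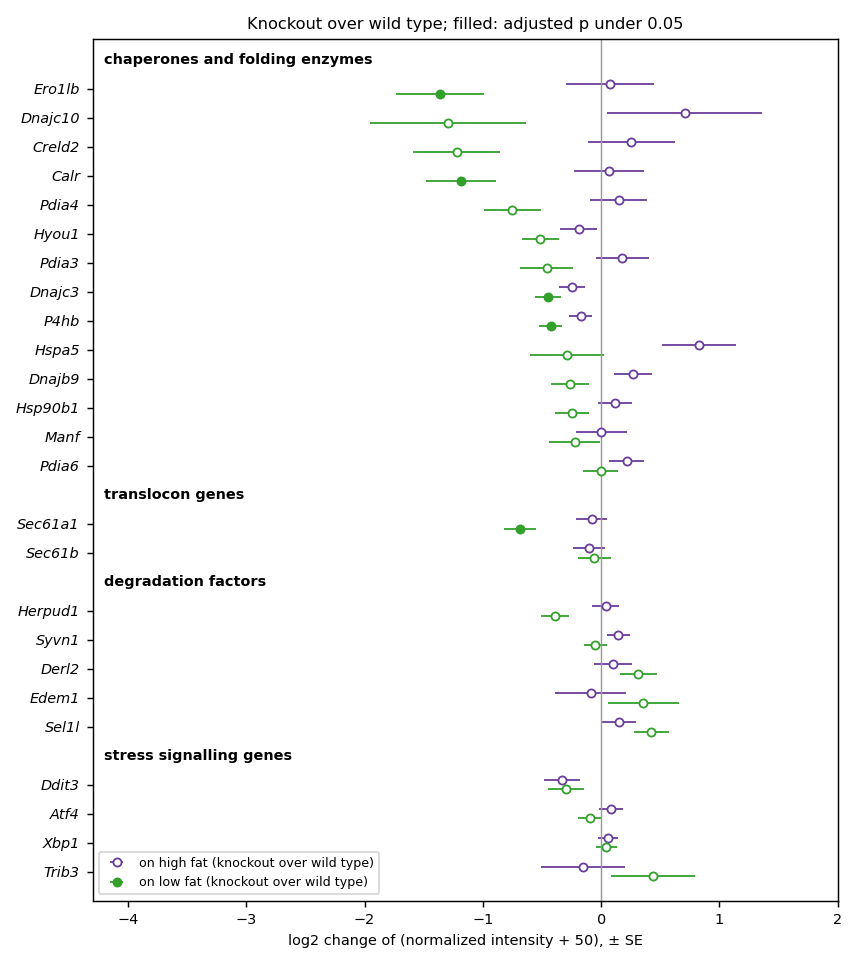
Log2 change of normalized intensity plus 50 (horizontal axis) with its SE for the 25 tested genes, knockout over wild type, on the high fat (purple) and low fat diet (green), grouped by role; filled points passed an adjusted p of 0.05. The 5 filled points, Ero1lb, Calr, Dnajc3, P4hb and Sec61a1, are all on the low fat diet and left of 0.

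Markers of the male tract also differed between the groups. Sel1l, Edem1 and Derl2 were higher in high fat wild type fat, where these tract markers were lower. The fat cell markers had a median log2 change of 0.33 there, 6 above 0 and 2 below, beside 0.06 over all genes. What part the mix of tissues had in the change of these 3 genes was not tested. In high fat against low fat wild type fat 14 of 14 measured epididymis markers (of 16 listed) and 8 of 8 seminal vesicle markers fell. In low fat knockout against low fat wild type fat 5 of 14 and 8 of 8 fell. Of all genes 16.7% were lower in the diet comparison and 3.15% in the genotype comparison. The summed intensity of the epididymis markers ran from 91.3 to 86001.9 in high fat knockout fat, 10636.6 to 105365.8 in low fat knockout fat, 548.9 to 1666.6 in high fat wild type fat and 141614.8 to 217748.8 in low fat wild type fat. All 14 were above the floor on every low fat wild type array, while Lcn9, Lcn10, Lcn12, Gpx5, Spag11a and Ros1 were below it on every high fat wild type array. The seminal vesicle markers summed to between 24.0 and 307.9 in high fat knockout fat, 5425.5 and 6904.1 in low fat knockout fat, 11.5 and 65.7 in high fat wild type fat and 61640.9 and 236706.3 in low fat wild type fat, with Svs1, Svs2, Svs3a, Svs3b and Svs4 below the floor on every high fat array of both genotypes. Secretory epithelia such as those of the tract are known to be rich in ER chaperones.

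The listed genes were refitted with the mean of the 14 epididymis markers as a covariate. In this fit 0 of the 25 genes passed in any of the 6 comparisons, and of all genes 10 passed for diet in wild type fat and 4 for genotype on low fat. With an unadjusted p under 0.05 there were 0 of the 25 for diet in wild type fat and 4 for genotype on low fat. In wild type fat the diet estimate of Dnajc10 was 0.69 (SE 0.83, adjusted p = 0.931) and that of Creld2 was 0.02 (SE 0.61, adjusted p = 0.999). That of Hspa5 was -0.02 (SE 0.60), that of Pdia4 was -0.33 (SE 0.42) and that of Herpud1 was -0.33 (SE 0.24). Syvn1 had -0.47 (SE 0.23, adjusted p = 0.717), Edem1 had 0.79 (SE 0.70), and Sel1l had 0.33 (SE 0.33), against 0.70 without the covariate. On low fat, Sec61a1 had a genotype estimate of -0.60 (SE 0.19, adjusted p = 0.456) and Dnajc3 one of -0.34 (SE 0.15, adjusted p = 0.536). Each SE given here was wider with the covariate than without it. Because the covariate follows the groups, diet and tract RNA cannot be told apart in wild type fat. Nor can genotype and tract RNA on low fat. The seminal vesicle markers, which were not in the covariate, also separated the low fat genotypes. They summed to 5425.5 to 6904.1 in knockout and 61640.9 to 236706.3 in wild type fat.

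**Figure D4:**
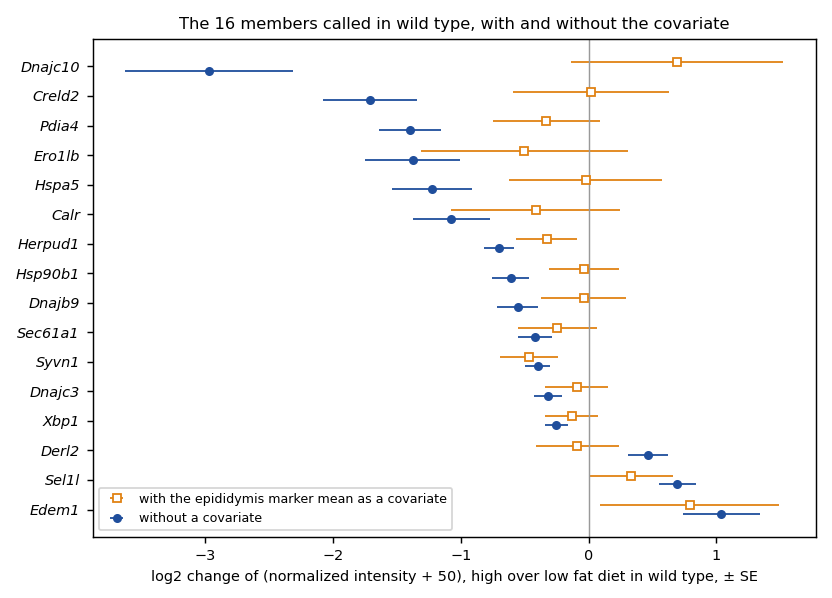
Diet change in wild type fat (log2 change of normalized intensity plus 50, high over low fat, horizontal axis) with its SE for the 16 genes called there, with (orange squares) and without (blue circles) the epididymis marker mean as a covariate. Dnajc10 stands at 0.69 with and -2.97 without it, Creld2 at 0.02 and -1.71, and Syvn1 at -0.47 and -0.40.

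**Figure D5:**
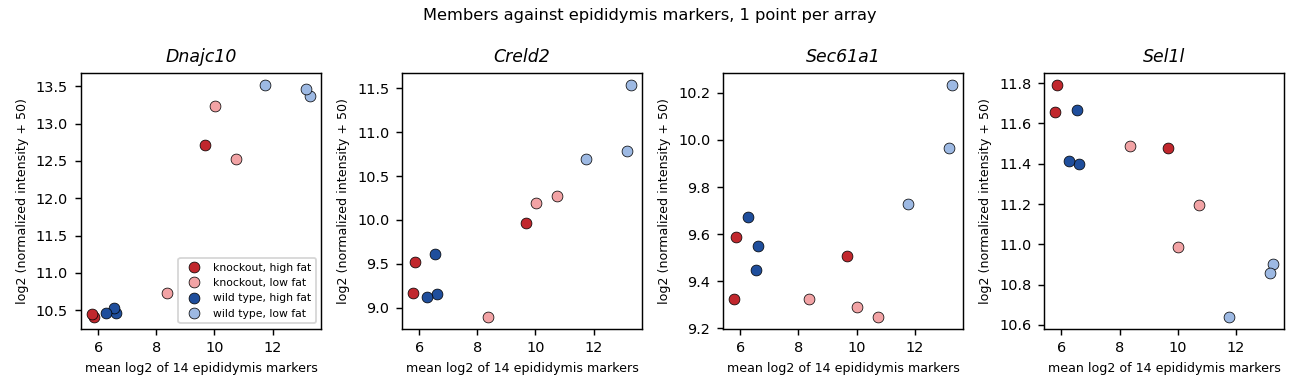
Log2 of normalized intensity plus 50 of Dnajc10, Creld2, Sec61a1 and Sel1l (vertical axes) against the mean log2 level of 14 epididymis markers (horizontal axes), 1 point per array, coloured by group. Dnajc10 is high on every array with a marker mean of 9.67 or more, Sec61a1 is lowest, at an intensity of 558, on a low fat knockout array, and Sel1l is lowest on the low fat wild type arrays.

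The pattern of Creld2 was set against all other tested genes as a description over the 12 arrays, which share group, pool and tract RNA. The 5 genes most like it by Pearson correlation were Kcnh3 (r = 0.986), Pdia5 (0.979), Wfdc8 (0.976), Fut4 (0.974) and Slc35b1 (0.973). Of these only Pdia5, a further protein disulfide isomerase of the ER, stood in any of the pathway or marker lists used here. Among the listed genes Pdia4 had 0.966 (rank 13 of all tested genes), Herpud1 0.919 (rank 200) and Dnajc10 0.889 (rank 389). Many genes outside the list were thus more like Creld2 than Herpud1 or Dnajc10. Derl2 had -0.808, Sel1l -0.789, Trib3 -0.717 and Edem1 -0.647.

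Markers of other cells were counted too. Of all genes, 22.7% were higher and 16.7% lower with diet in wild type fat, and 4.34% passed in knockout fat. In wild type fat 9 of 9 measured macrophage markers (of 10 listed) rose, summing to 31414.3 to 40587.6 on high fat and 7293.8 to 10607.0 on low fat, and in knockout fat 6 of 9 rose. Of the plasma cell markers 3 of 5 measured (of 7 listed) rose in wild type fat, summing to 416.2 to 477.7 on high fat and 150.4 to 315.5 on low fat. In knockout fat 0 of 5 passed. These markers were dim, with 4 to 5 of the 5 above the floor on high fat wild type arrays and 3 to 4 on low fat wild type arrays. Of the fibroblast markers 6 of 7 rose in wild type fat, summing to 42088.9 to 49464.8 on high fat and 22063.1 to 33593.2 on low fat, and 3 of 7 rose in knockout fat. Of the skeletal muscle markers 2 of 10 fell in wild type fat and 0 of 10 passed in knockout fat, both near the shares of all genes. The part of these cells in the changes of the listed genes was not tested, apart from the muscle mean as a covariate.

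The neighbouring genes of the pathway were counted beside 16.7% lower and 22.7% higher of all genes for diet in wild type fat. Of 14 tested further folding genes (of 18 listed) 10 fell and none rose in high fat against low fat wild type fat, and of 25 further entry and glycosylation genes 10 fell and none rose. Fkbp11, a proline isomerase of secretory cells, averaged 216 ± 17.4 in high fat and 851 ± 422 in low fat wild type fat (SD, n = 3 each, log2 change -1.65, adjusted p = 0.00155). Serp1, a small protein that stabilises membrane proteins at the translocon, had a log2 change of -1.07 (adjusted p = 0.00139), and Qsox1, a sulfhydryl oxidase, one of -1.45 (adjusted p = 0.00218). Stt3a, the catalytic subunit of an oligosaccharyltransferase, had -0.78 (adjusted p = 0.00114), and Sec11c, of the signal peptidase, -1.42 (adjusted p = 0.00354). Rpn1, of the same transferase as Stt3a, was below the floor on every high fat wild type array (mean 5.77, against 34.9 on low fat) and at least 1.09-fold lower (adjusted p = 0.00226).

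Of 11 tested further degradation genes 1 fell in wild type fat, Edem2 (log2 change -0.45, adjusted p = 0.00597). Of 19 tested further stress signalling genes 6 rose and 3 fell, beside 22.7% higher and 16.7% lower of all genes. Atf3, a transcription factor of the stress response, averaged 1081 ± 200.5 in high fat and 40.4 ± 7.61 in low fat wild type fat (SD, n = 3 each, log2 change 3.63, adjusted p = 2.62e-05). It rose in knockout fat too, at 467 ± 186 on high fat and 45.3 ± 28.3 on low fat (log2 change 2.40, adjusted p = 0.00329). Wfs1, an ER membrane protein that restrains the stress response, rose by a log2 change of 0.75 in wild type (adjusted p = 0.000952) and 0.62 in knockout fat (adjusted p = 0.0157), and Sesn2, a target of Atf4, by 1.14 in wild type fat (adjusted p = 0.00452). In knockout fat Atf3 and Wfs1 were the only called genes of all 5 pathway lists. Of 13 tested cytosolic heat shock genes, which serve another compartment, Hspb1 rose (log2 change 0.65, adjusted p = 0.0247) and Dnajb1 fell (log2 change -0.60, adjusted p = 0.00894) in wild type fat.

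Between genotypes on low fat, 4 further folding genes and 4 further entry and glycosylation genes were lower in knockout fat and none was higher, beside 3.15% lower and 4.71% higher of all genes. Over all genes the 925 calls of this comparison became 25 to 1559 when 1 array was left out and 4 with only its own arrays. Fkbp11 averaged 217 ± 60 in low fat knockout and 851 ± 422 in low fat wild type fat (SD, n = 3 each, log2 change -1.67, adjusted p = 0.0197). Txndc5, a further disulfide isomerase, had a log2 change of -0.52 (adjusted p = 0.0234) and Serp1 one of -0.92 (adjusted p = 0.0238). Spcs3, of the signal peptidase, had -0.91 (adjusted p = 0.0282), and Dad1 and Ostc, both of the oligosaccharyltransferase, had -0.39 (adjusted p = 0.0349) and -0.63 (adjusted p = 0.0395). Of the degradation and stress lists, Edem2 (-0.41, adjusted p = 0.042) and Wfs1 (-0.49, adjusted p = 0.0373) were lower, and Ube2j1, a ubiquitin-conjugating enzyme of the ER (0.65, adjusted p = 0.0427), and Sesn2 (1.36, adjusted p = 0.0226) were higher. Over both diets Wfs1 (-0.55, adjusted p = 0.0181), Txndc5 (-0.34, adjusted p = 0.0342) and Erp29 (-0.32, adjusted p = 0.0434) were lower and Selk higher (0.43, adjusted p = 0.0478). On high fat, and for the difference between diet effects, none of the genes of these 5 lists passed.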

How the data were processed

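RNA pools from epididymal fat were hybridised to Illumina mouse bead arrays. The authors made the normalized intensities used here with GenomeStudio, per the submitters' processing notes; its version and settings are not given in the sources used here. Values below 0 (22.9% of all) mark a subtracted background. The deposited tables of raw intensity and of a detection p-value per probe carried array codes that no label ties to a sample, so they gave only gene names and the number of arrays that detected a probe, and a planned fit from raw values was replaced. A further 20 signal columns belonged to no sample. Of 25697 probes 15765 were detected on at least 3 of 12 arrays. The detected probe with the highest mean stood for each gene, which left 11774 genes. log2(intensity + 50) was fitted with limma 3.58.1 (R 4.3.3) as 4 group means with 6 contrasts, and p-values were Benjamini-Hochberg adjusted over all genes. A fold change is on this scale and understates that of dim genes. Array number limits the precision. The floor of 27.9 is the intensity exceeded by the share of values that the least sensitive array detected (52.1%). Members and lists were chosen with earlier results of these data known. Members called in any contrast, up to 20, are given by array, with the 2 brightest uncalled members of each role and up to 3 called genes per pathway list and contrast. Same-numbered arrays of different groups did not deviate together (18 pairs, r from -0.812 to 0.162), so no block was used.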

Additional observations from a re-analysis of the deposited data

How the results depend on the processing

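Limits of these data are 3 arrays per group, dim probes below the floor of 27.9, and tract RNA that follows the groups. Of 23 calls over the comparisons, 23 were kept with an offset of 100 and 20 with an offset of 32, none reversed. With cyclic loess 22 were kept, the median of all genes for diet in wild type fat moved to -0.05, against 0.06, and 44.8% of the calls over all genes were higher, against 57.6%; 18 members were then called there, 2 higher and 16 lower. The same share was 38.1%, against 59.9%, for genotype on low fat and 42.8%, against 61.3%, over both diets. For genotype on low fat the 5 members called became 2 with no detection filter, 0 with only the arrays of the contrast, 0 with the replicate block, 0 with the epididymis covariate and 9 (2 higher, 7 lower) without both arrays that stood apart. Over both diets the 2 called became 0 with an offset of 32, 0 with no filter, 1 with the mean of probes, 1 with each probe by itself, 0 with the block, 0 with the covariate and 0 without the arrays that stood apart. For diet in wild type fat the 16 called became 13 (2 higher, 11 lower) with the block and 0 with the covariate, under which Creld2 (0.019), Derl2 (-0.088) and Dnajc10 (0.69) changed sign. With the skeletal muscle mean as covariate 18 of the 23 calls were kept. Over all genes the block gave 301 calls for diet in knockout, 4158 for diet in wild type, 4 and 118 for genotype on high and low fat, 18 over both diets and 6 for the difference. Replicate numbers did not pair the samples, and 1 of 12 samples correlated best with its own number. Leaving out 1 array in turn gave 0 to 1 members called for diet in knockout, 8 to 18 for diet in wild type, 0 for genotype on high fat in every fit, 0 to 9 on low fat, 0 to 4 over both diets and 0 to 1 for the difference. The cause of each change was not tested.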
